A study of Mus musculus with 5 samples.

Results

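The genes described here are 10 genes whose transcripts are raised by RAS/ERK signaling and whose products, for the most part, act back on it, namely Spry1, Spry2, Spry4, Spred1, Spred2, Dusp4, Dusp6, Etv1, Etv4 and Etv5. They were chosen by symbol, and all 10 were found among the 23478 genes of the count table. RNA-Seq was performed on GFP-sorted cells from mouse lungs at postnatal day 6, in 2 control and 3 Igf1r-deleted libraries. All pups carried the tamoxifen-dependent Gli1-CreERT2 driver and a Rosa-eGFP reporter, and all were given 100 µg of tamoxifen on days 0 and 1. Control pups had 1 floxed and 1 wild-type Igf1r allele, so their sorted cells could lose 1 copy of the gene, while the Igf1r-deleted pups had 2 floxed alleles. The sort takes every cell in which Gli1-driven Cre was once active, together with the progeny of such cells. Mice of both sexes on a mixed background were used. The number of pups behind a library is not given in the sources used here, so p-values measure only the spread between these libraries.

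IGF1R is a receptor tyrosine kinase that signals through PI3K/AKT and through RAS, RAF, MEK and ERK. Active ERK switches on genes that limit it. Sprouty and Spred proteins act upstream, at the receptor complex, RAS and RAF. DUSP4 and DUSP6 are phosphatases that remove the activating phosphates from MAP kinases. ETV1, ETV4 and ETV5 form the PEA3 group of ETS transcription factors, which carry signals of FGF and other receptors to their target genes. Several of these genes are commonly read as transcript markers of ERK output. The transcription factor CIC represses some of them until ERK signaling relieves it. FGF and PDGF receptors also feed ERK in lung mesenchyme, so IGF1R is only 1 of its inputs.

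Promoter sequences were read from RefSeq (GRCm38.p6, the build called mm10) as windows of 300 bases, from 250 before to 50 after a transcription start. Of the 10 genes, 7 had at least 1 such window, with 9 windows in all. Spry4, Dusp4 and Etv4 had no window in the promoter set used here. The windows of Spry1, Spry2 and Dusp6 are shown because Spry1 and Dusp6 had opposite differences between the genotypes and because Spry2 was the member with the profile nearest to that of Spry1. Capitals mark a match to 1 of the motifs searched on both strands.
Spry1, chr3:37639697-37639996, plus strand: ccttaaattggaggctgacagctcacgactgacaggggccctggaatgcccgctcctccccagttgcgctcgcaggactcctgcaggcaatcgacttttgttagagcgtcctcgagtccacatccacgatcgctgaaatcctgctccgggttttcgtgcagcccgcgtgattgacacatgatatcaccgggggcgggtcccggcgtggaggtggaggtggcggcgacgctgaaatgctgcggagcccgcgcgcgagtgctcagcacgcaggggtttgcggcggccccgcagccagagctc
Spry2, chr14:105896770-105897069, minus strand: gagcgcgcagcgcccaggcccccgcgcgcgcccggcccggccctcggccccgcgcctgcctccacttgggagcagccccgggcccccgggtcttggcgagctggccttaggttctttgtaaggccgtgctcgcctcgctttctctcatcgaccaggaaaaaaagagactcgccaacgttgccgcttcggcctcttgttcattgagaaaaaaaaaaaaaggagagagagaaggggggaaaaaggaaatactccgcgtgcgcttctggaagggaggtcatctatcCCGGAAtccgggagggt
Dusp6, chr10:99262981-99263280, plus strand: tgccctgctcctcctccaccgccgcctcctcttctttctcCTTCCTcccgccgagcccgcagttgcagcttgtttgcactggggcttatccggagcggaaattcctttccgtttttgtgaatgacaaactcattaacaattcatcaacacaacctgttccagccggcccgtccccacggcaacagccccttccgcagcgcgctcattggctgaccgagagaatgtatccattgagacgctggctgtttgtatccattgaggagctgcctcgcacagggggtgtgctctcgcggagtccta

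The capitals in the Dusp6 window are AGGAAG, a motif bound by PEA3 factors, on the minus strand, with their first base 210 bases before the start. AGGAAG was present in 4 of the 9 windows of these genes (Dusp6, Etv1, Etv5 and Spred2) and in 35.4% of all 32851 windows. The capitals in the Spry2 window are the ETS motif CCGGAA, which occurred in 1 of the 9 windows and in 14.9% of all windows. No match to either motif was found in the Spry1 window. The CIC octamers TGAATGAA and TGAATGGA, the cyclic AMP element TGACGTCA, the AP-1 motif TGANTCA and the CArG box bound by serum response factor had 0 matches in the 9 windows, against 1.3%, 1.21%, 1.79%, 7.81% and 1.63% of all windows. Among the motifs searched, CCGGAA and AGGAAG can overlap when they follow each other. The pair of matches in the Etv1 window overlapped one another. A match describes letters in a window, and sites farther from the start were not searched. Other forms of the CIC octamer were not searched either. The lack of matches to the forms named therefore does not show that these windows lack CIC sites.

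The libraries held 35116766 to 37597857 counts, and levels are given as CPM, counts scaled to a common library size after TMM correction. The variance between libraries of the same genotype was 23.9 to 52.5 times that of counting alone (chi-square divided by its degrees of freedom). Igf1r was at 324 CPM in each control library and at 140, 177 and 194 CPM in Igf1r-deleted replicates 1, 2 and 3. Xist and 4 Y-linked genes read both control libraries and Igf1r-deleted replicate 2 as male, and Igf1r-deleted replicates 1 and 3 as female, so sex differed between the genotypes. Of markers of other cells, the summed level of 12 epithelial genes was 1052 and 1124 CPM in control libraries against 769, 1076 and 485 CPM in replicates 1, 2 and 3 of the Igf1r-deleted group. That of 8 hematopoietic genes was 427 to 596 CPM in control libraries against 489, 346 and 213 CPM after Igf1r deletion. The 12 myofibroblast markers summed to 4678 and 5008 CPM against 4955, 5804 and 5654 CPM, and 10 markers of lipofibroblasts and matrix fibroblast 1 cells to 11394 to 11567 CPM against 10595, 9569 and 10409 CPM. Within these sums the markers divided, with 8 higher and 4 lower in estimate for myofibroblasts and 3 higher and 7 lower for the other list. The 8 matrix fibroblast 2 markers summed to 2157 to 2452 CPM against 2396, 1759 and 1976 CPM, and the 8 endothelial markers to 504 to 514 CPM against 474, 729 and 258 CPM, where Igf1r-deleted replicates 2 and 3 stood apart in opposite directions. No marker was at 0 in any library, and the part of sex and of cell makeup in the results below was not tested beyond the values given.

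All 10 genes were well detected, with a lowest count of 126 (Etv4 in control replicate 1), and all 10 passed the filter on low counts. Divided by exon length, the order of the mean levels was the same in both genotypes. Spry1 had the highest level in the controls, 132 ± 0.241 CPM per kb (SD, n = 2), followed by Spry4 at 91.0 ± 2.71 CPM per kb and Dusp6 at 79.1 ± 6.16 CPM per kb. Spry2 was at 43.8 ± 3.87 CPM per kb and Spred1 at 29.8 ± 0.372 CPM per kb. Spred2, Etv5, Dusp4 and Etv1 followed with means of 13.5, 12.9, 9.79 and 8.76 CPM per kb, and Etv4 was lowest at 2.67 ± 2.12 CPM per kb. Per length, the 3 Sprouty genes and Dusp6 were all above the PEA3 factors in every library. Of the 9 pairs of neighbors in the order, 3 overlapped between libraries in the controls (Spred2 with Etv5, Etv5 with Dusp4, and Dusp4 with Etv1), and in the Igf1r-deleted libraries 4 did, the same pairs and Dusp6 with Spry2. Exon lengths count every annotated isoform, and that of Etv1 is 13296 bases, which lowers its level per length.

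The comparison of the genotypes asked whether transcripts that follow ERK activity differed when Igf1r was deleted. The 10 genes lay on both sides, 6 with a higher and 4 with a lower estimate in the Igf1r-deleted libraries. Spry1 was higher and Spry4 and Dusp6 were lower in every Igf1r-deleted library than in both controls, while the other 7 overlapped between the genotypes. That is 3 of 10 without overlap, where 31% of all 15298 genes tested did not overlap (16% higher and 14.9% lower), so the share among these genes was near that of all genes. With edgeR's quasi-likelihood test, the same 3 genes had an unadjusted p under 0.05, 1 higher and 2 lower, against 12.4% of all genes (5.65% higher and 6.75% lower). After Benjamini-Hochberg adjustment over all genes, 0 of 10 passed at 0.05, as did 0% of all genes tested. DESeq2's Wald test also called 0 of the 10 after adjustment, where it called 1.61% of the 12328 genes with an adjusted p. Of the 10, 0 met the study's criterion (a log2 difference of 0.5 or more in size, an unadjusted p under 0.05 and a minimum level), which 5.83% of all genes met. The median log2 fold change was 0.12 over the 10 genes and 0.015 over all genes tested, and the smallest p that a permutation of 2 against 3 libraries can give is 0.1.

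**Figure D1:**
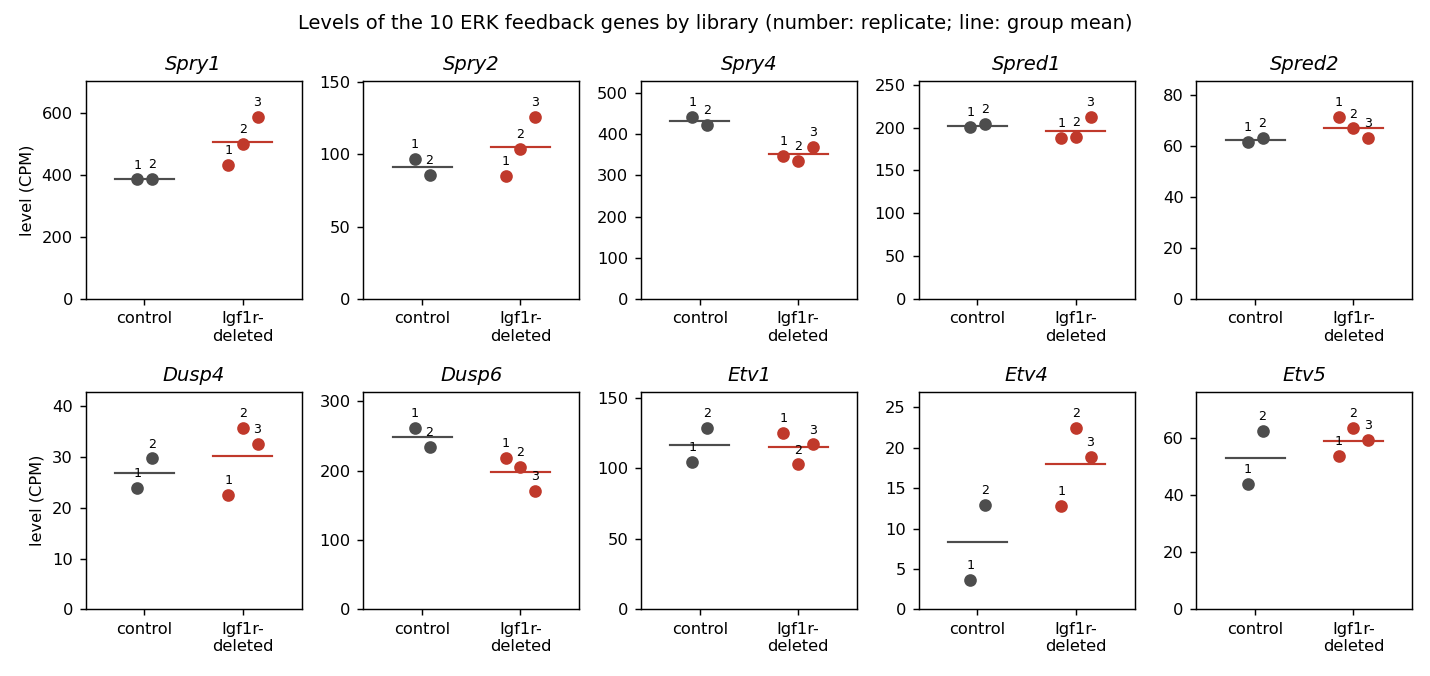
Levels of the 10 genes in CPM (vertical axis, linear from 0, a scale for each gene) in the control and Igf1r-deleted libraries, with 1 point per library, the replicate number above it and a line at the group mean. Spry1 lies higher and Spry4 and Dusp6 lie lower in all 3 Igf1r-deleted libraries, and the other 7 genes overlap.

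Sprouty genes went in both directions. Spry1, an inhibitor of receptor tyrosine kinase signaling needed in kidney and other branching organs, had 384 and 385 CPM in control libraries against 431, 500 and 585 CPM in replicates 1, 2 and 3 of the Igf1r-deleted group. The controls were nearly equal, and the Igf1r-deleted libraries were all above them but spread widely. The log2 fold change was 0.39 (standard error 0.14, 95% interval 0.056 to 0.73), a 1.31-fold difference, with an adjusted p of 0.367 by edgeR's quasi-likelihood model. Spry1 lies on chromosome 3 of mm10 from 37639947 to 37644598, and 24.4% of its exon length overlaps Gm42922 on the opposite strand, so without stated use of strand its reads are less certain.

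Spry4, which restrains RAS/ERK activation downstream of FGF and VEGF receptors, had 442 and 423 CPM in control libraries against 348, 336 and 370 CPM after Igf1r deletion. Both sets of libraries were tight and well apart. The log2 fold change was −0.30 (standard error 0.10, 95% interval −0.54 to −0.066), with an adjusted p of 0.354 by the same edgeR model. As these are sorted populations measured in bulk, fewer cells that express a gene and less of its RNA per cell cannot be told apart.

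Spry2, the Sprouty gene best known for control of FGF signaling in lung branching, had 97.1 and 85.7 CPM in control libraries against 85.1, 104 and 126 CPM after Igf1r deletion. Igf1r-deleted replicate 1 lay with the controls and replicates 2 and 3 above them. Its log2 fold change of 0.20 had a 95% interval of −0.19 to 0.59, which holds both 0 and the estimate of Spry1. As a consequence of the opposite differences, the ratio of Spry1 to Spry4 within a library (looked at after the values were seen, in CPM) was 0.870 and 0.910 in the controls and 1.24, 1.49 and 1.58 in the Igf1r-deleted libraries. The summed Sprouty level overlapped, at 923 and 894 CPM in control libraries against 864, 939 and 1080 CPM after Igf1r deletion.

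Spred proteins bring neurofibromin to the membrane to switch off RAS. Spred1 had 200 and 204 CPM in control libraries against 188, 189 and 212 CPM after Igf1r deletion, with a log2 fold change of −0.041 (95% interval −0.28 to 0.19). Spred2 had 61.5 and 62.9 CPM against 71.1, 66.7 and 62.9 CPM, with a log2 fold change of 0.10 (95% interval −0.12 to 0.33). Both genes differed little, and the intervals leave out differences larger than about 0.33 on the log2 scale. Spred3 and Spry3, the remaining genes of these families, were low, at 1.36 and 1.02 CPM on average in the controls. Spred3 had a log2 fold change of 0.48 (95% interval −0.45 to 1.4), and neither passed the test.

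Dusp6 encodes the cytoplasmic phosphatase selective for ERK, and its transcript is among the most direct readouts of ERK activity. It had 261 and 234 CPM in control libraries against 218, 205 and 170 CPM in replicates 1, 2 and 3 of the Igf1r-deleted group. All Igf1r-deleted libraries were below both controls, with replicate 3 lowest and replicate 1 close to control replicate 2. The log2 fold change was −0.33 (standard error 0.13, 95% interval −0.63 to −0.022), with an adjusted p of 0.394 by edgeR's model. Dusp6 lies on chromosome 10 from 99263231 to 99267489 of mm10, with no annotated gene sharing its exons.

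Dusp4, a nuclear phosphatase of ERK and other MAP kinases, had 23.9 and 29.8 CPM in control libraries against 22.6, 35.8 and 32.6 CPM after Igf1r deletion. Its groups overlapped, with Igf1r-deleted replicate 1 the lowest of the 5 libraries (log2 fold change 0.18, 95% interval −0.30 to 0.66). Dusp4 and Dusp6 thus had estimates of opposite sign, but the difference between them was not tested.

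The other MAP kinase phosphatases also divided. Of 8 such genes, 2 were higher and 2 lower with an unadjusted p under 0.05, and 0 passed after adjustment with edgeR's quasi-likelihood test, against 3 with DESeq2. Of all genes, 5.65% were higher and 6.75% lower at that unadjusted p, and DESeq2 called 1.61%. The lower ones were Dusp1 and Dusp5, both nuclear and induced as immediate early genes, with Dusp5 selective for ERK. Dusp1 had 1111 and 944 CPM in control libraries against 744, 659 and 758 CPM after Igf1r deletion (−0.51 ± 0.13 on the log2 scale, SE). Dusp5 had 29.3 and 23.0 CPM against 17.6, 14.7 and 17.7 CPM (−0.65 ± 0.15 on the log2 scale, SE). For either gene, all 3 libraries with the deletion were below the lower control. DESeq2's Wald test gave an adjusted p of 0.0117 for Dusp1 and 0.0338 for Dusp5.

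The higher ones were Dusp8 and Dusp10, which act mainly on the stress kinases JNK and p38. Dusp8 had 22.6 and 25.0 CPM in control libraries against 32.6, 42.3 and 40.9 CPM after Igf1r deletion (0.70 ± 0.14 on the log2 scale, SE). Dusp10 had 23.1 and 38.7 CPM against 39.9, 62.1 and 67.3 CPM (0.87 ± 0.28 on the log2 scale, SE), so Igf1r-deleted replicate 1 was barely above control replicate 2. Without control replicate 1 the Dusp10 estimate was 0.54 and no longer had an unadjusted p under 0.05. DESeq2's Wald test gave an adjusted p of 0.0103 for Dusp8 and 0.0956 for Dusp10. The estimate largest in size among the 8 belonged to Dusp2, with 7.75 and 5.95 CPM in control libraries against 5.87, 2.56 and 2.31 CPM after Igf1r deletion (log2 fold change −0.94, 95% interval −1.9 to 0.026). Of the 8 genes, 3 were higher and 3 lower without overlap, where 16% and 14.9% of all genes were, and Dusp2 and Dusp10 were separated only narrowly.

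**Figure D2:**
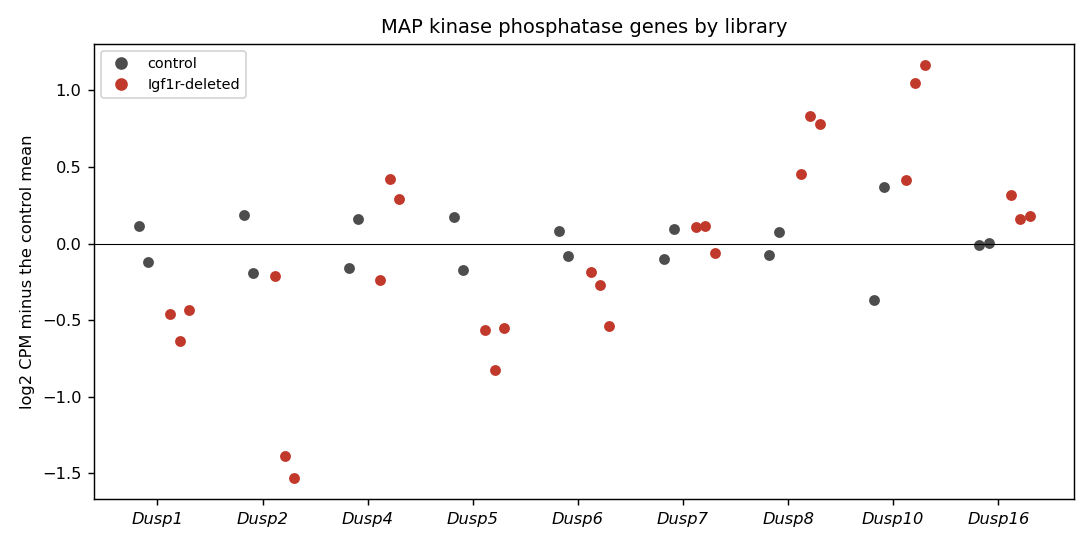
Log2 CPM minus the mean of the controls (vertical axis) for the MAP kinase phosphatase genes with a mean over 2 CPM, with 1 point per library. Dusp1, Dusp5 and Dusp6 lie below both controls and Dusp8 and Dusp16 above them in all 3 Igf1r-deleted libraries. Dusp2 and Dusp10 are parted by a narrow gap, and Dusp4 and Dusp7 overlap.

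Among the PEA3 factors none passed the test. Etv4 had the largest estimate of the 10 genes, and also the widest spread. It had 3.63 and 12.9 CPM in control libraries against 12.8, 22.4 and 18.9 CPM in replicates 1, 2 and 3 of the Igf1r-deleted group. Control replicate 1 stood far below the other 4 libraries, and Igf1r-deleted replicate 1 was level with control replicate 2. The log2 fold change was 1.12 (standard error 0.49, 95% interval −0.031 to 2.27), with an adjusted p of 0.403 by edgeR's model. Dropping control replicate 1 brought it to 0.48, and dropping control replicate 2 to 2.30. Etv4 lies on chromosome 11 of mm10 from 101769742 to 101785371.

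Etv5, which in lung is also a gene of alveolar type 2 cells, had 43.9 and 62.3 CPM in control libraries against 53.5, 63.4 and 59.1 CPM after Igf1r deletion. Control replicate 2 lay within the Igf1r-deleted range and control replicate 1 below it. The log2 fold change was 0.14 (95% interval −0.23 to 0.52), and it was −0.090 without control replicate 1. Sftpc, a surfactant gene of type 2 cells, was at 530 and 543 CPM in control libraries against 380, 552 and 233 CPM after Igf1r deletion. Etv1 had 104 and 129 CPM against 125, 103 and 117 CPM (−0.018 on the log2 scale, 95% interval −0.33 to 0.29), with the libraries of both genotypes interleaved.

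**Figure D3:**
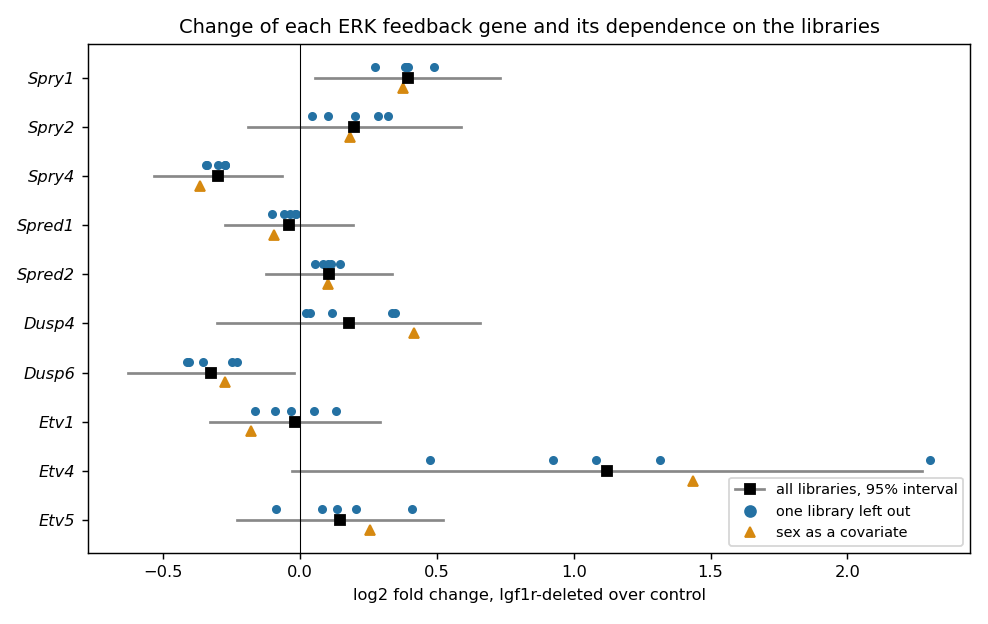
Log2 fold changes of the 10 genes, Igf1r-deleted over control (horizontal axis), with all libraries and a 95% interval from edgeR (black squares and gray lines), with each library left out in turn (blue circles) and with sex as a covariate (orange triangles). The intervals of Spry1, Spry4 and Dusp6 leave out 0, and the estimates of Etv4 run from 0.48 to 2.30 with the library left out.

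The differences of Spry1, Spry4 and Dusp6 kept their direction in all 15 alternatives. For these genes every Igf1r-deleted library lay beyond both controls, so dropping a library could hardly turn the sign. With library totals in place of TMM, Dusp6 no longer had an unadjusted p under 0.05. Dropping libraries one at a time gave log2 fold changes from 0.27 to 0.49 for Spry1, from −0.34 to −0.27 for Spry4 and from −0.41 to −0.23 for Dusp6. With sex as a covariate, the values were 0.38, −0.37 and −0.27. In that fit the genotype effect rests on male libraries alone (2 controls and Igf1r-deleted replicate 2). None of the 10 genes then had an unadjusted p under 0.05, where 8.82% of all genes did. The direction was the same in the male Igf1r-deleted library and in both female ones, which also follows from the lack of overlap. Without Igf1r-deleted replicate 1, 6 of the 10 had an unadjusted p under 0.05 (Spry1, Spry2, Dusp4 and Etv4 higher, Spry4 and Dusp6 lower), where 21% of all genes did. Without control replicate 1 or Igf1r-deleted replicate 2 it was 0 of 10, where 2.76% and 6.58% of all genes did, and without Igf1r-deleted replicate 3 it was Spry4 alone, where 7.35% did. Without control replicate 2 it was Spry4, Dusp6, Etv4 and Etv5, where 14.8% of all genes did.

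Profiles over the 5 libraries were compared by the root mean square distance of log2 CPM, each gene centred on its mean. The nearest pair of members was Spry1 with Spry2 (0.120), and Spry4 with Spred1 (0.132) and Spred1 with Spred2 (0.134) followed. Dusp6 was nearest to Spry4 (0.160) and, leaving Etv4 aside, farthest from Spry1 (0.435). Etv4 was at least 0.738 from every other member. The mean profile of the 10 genes, in which Etv4 varied most, was nearest to those of Mapre2, Glipr2, Npepl1, Adnp and Atp2a2 among 9091 genes, at distances of 0.0128 to 0.0226. With 5 libraries such nearness is a description only.

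Of 34 genes from receptor adaptors to ERK and its downstream kinases and ETS factors, 2 had an unadjusted p under 0.05, both lower, and 0 passed after adjustment with edgeR's quasi-likelihood test, against 1 (Irs2) with DESeq2. Over all genes the shares were 12.4% (6.75% lower) and 1.61%, and the difference between this list and all genes was not tested. The median log2 fold change of the 34 genes was 0.0030. The lower genes were Irs2, the adaptor between IGF1R and PI3K (585 and 387 CPM in control libraries against 297, 245 and 276 CPM), and the ERK-responsive ETS factor gene Ets2 (492 and 369 CPM against 332, 249 and 257 CPM). Their log2 fold changes were −0.83 and −0.63, and −0.51 and −0.41 without control replicate 1, where Ets2 no longer had an unadjusted p under 0.05. Mapk3, which encodes ERK1, had a log2 fold change of −0.10 with a 95% interval of −0.33 to 0.13. The largest estimates were 0.23 among genes of RAS GTPase-activating proteins (Rasal2) and 0.20 among those of RAF kinases and scaffolds (Araf), and neither passed the test.

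Of 8 other genes that respond to ERK, 3 had a higher and 5 a lower estimate. Only Myc of these 8 had an unadjusted p under 0.05, where 12.4% of all genes did (6.75% lower). Myc had 60.1 and 35.7 CPM in control libraries against 32.4, 20.9 and 22.7 CPM after Igf1r deletion (−0.92 ± 0.26 on the log2 scale, SE, adjusted p = 0.354 by edgeR's model). Its estimate ran from −1.26 to −0.50 when a library was dropped, the smaller in size without control replicate 1, where it no longer had an unadjusted p under 0.05. Fosl1, an AP-1 subunit gene, had the estimate largest in size, at −1.55 (95% interval −3.7 to 0.59), from 1.41 and 0.764 CPM in control libraries against 0.907, 0.101 and 0.111 CPM after Igf1r deletion.

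A list of 14 genes held 12 immediate early genes, which ERK induces within minutes and which enzymatic dissociation of tissue also induces, and 2 heat shock genes. All 14 were lower in estimate (median log2 fold change −0.48), and 9 had an unadjusted p under 0.05, 7 of the 12 immediate early genes and both heat shock genes, where 6.75% of all genes did in that direction. The list was chosen with earlier results of these data known, so the contrast with all genes is a description only. None of the 14 passed after adjustment with edgeR's quasi-likelihood test, where the smallest adjusted p was 0.306, while DESeq2 called 5 (Btg2, Egr2, Egr3, Junb and Zfp36). Egr2 had 87.5 and 79.9 CPM in control libraries against 47.5, 45.6 and 48.6 CPM after Igf1r deletion (−0.82 ± 0.094 on the log2 scale, SE). Fos had a log2 fold change of −0.44, Junb of −0.54, Zfp36 of −0.58, Btg2 of −0.49, Ier2 of −0.47 and Egr3 of −0.87. Without control replicate 1 the values were −0.27 for Fos, −0.36 for Zfp36 and −0.20 for Ier2, and Fos, Junb, Btg2 and Ier2 no longer had an unadjusted p under 0.05. That was also so of Fos without Igf1r-deleted replicate 2 or 3, of Ier2 without replicate 1 or 2 and of Btg2 without replicate 2. The heat shock gene Hspa1a had 985 and 1122 CPM in control libraries against 521, 119 and 114 CPM after Igf1r deletion, a wider spread, with Hspa1b alike at 742 and 1217 CPM against 543, 88.2 and 116 CPM. Hspa1a and Hspa1b are near-identical copies, so the division of reads between them is uncertain, and neither had an unadjusted p under 0.05 with robust empirical Bayes. Without Igf1r-deleted replicate 1 their log2 fold changes were −3.18 and −3.26, against −2.07 and −1.98 with all libraries, and Hspa1b was not under 0.05 without control replicate 2 or Igf1r-deleted replicate 3. Of the 14 genes, the 9 with an unadjusted p under 0.05 were lower in every Igf1r-deleted library than in both controls. Over all genes 14.9% were, and the other 5 of the list overlapped between the genotypes. Spry4, Dusp6, Dusp1 and Dusp5, like Dusp2, Myc, Irs2 and Ets2, were also lower in every Igf1r-deleted library than in both controls. That holds for any gene lower without overlap, so it does not show that they varied with the listed genes. The part of the dissociation response in the levels of all these genes was not tested.

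**Figure D4:**
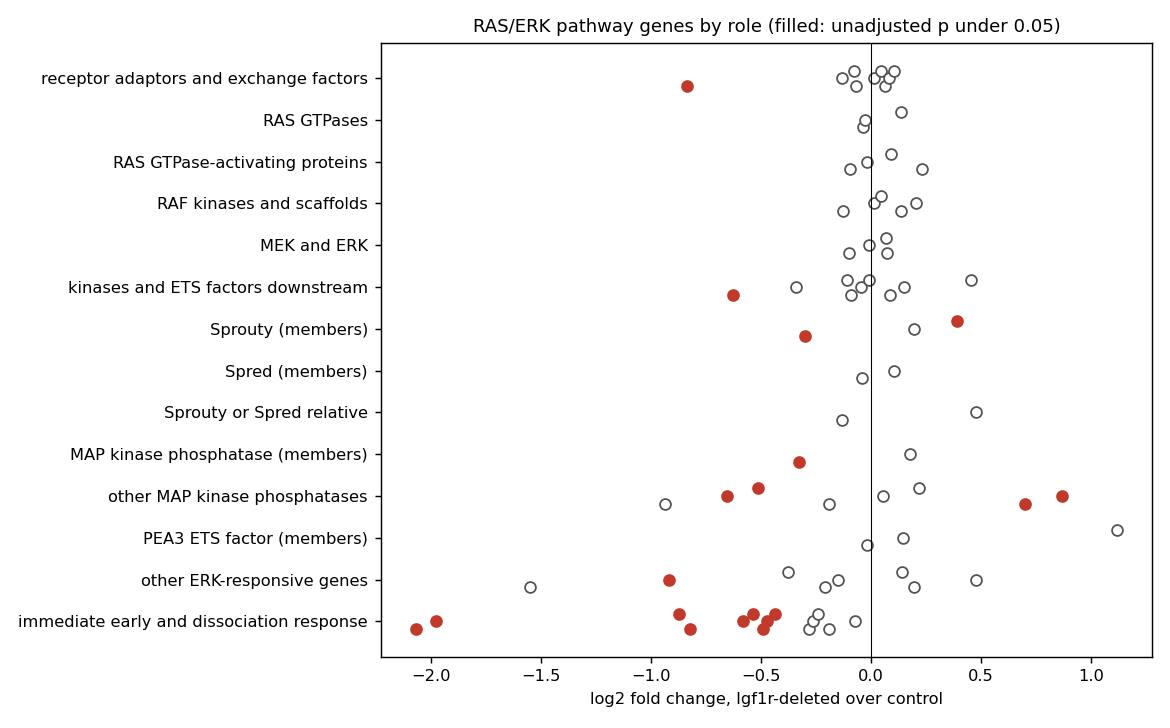
Log2 fold changes, Igf1r-deleted over control (horizontal axis), of the genes of each role in the RAS/ERK pathway (rows), with 1 circle per gene, filled where the unadjusted p of edgeR was under 0.05. Genes from adaptors to ERK lie near 0 except Irs2, Sprouty genes and MAP kinase phosphatases lie on both sides, and all 12 immediate early and 2 heat shock genes of the bottom row lie below 0.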

How the data were processed

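The 5 RNA-Seq libraries (2 control and 3 Igf1r-deleted) were grouped by their sample labels. The authors used Trim Galore for trimming, Bowtie2 for alignment to mm10 and GenomicAlignments for counting, and deposited raw counts, 1 column per library. Versions, annotation and use of strand are not given in the sources used here. Bowtie2 does not split a read at an intron, which may leave reads over splice junctions uncounted.

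Counts were tested with edgeR 4.0.16 (R 4.3.3) using two-sided quasi-likelihood F tests. Scaling was by TMM, filterByExpr kept 15298 genes, the model held genotype alone, and p-values were adjusted by Benjamini-Hochberg over those genes. A prior count of 2 entered log2 CPM. Intervals are 95% intervals of the fit. The study's criterion was computed with a CPM above 1 in 50% or more of either genotype's libraries, in place of FPKM. Exon lengths and overlaps came from GENCODE M21, and promoter windows from RefSeq. Hras was found as Hras1.

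The members and gene lists were chosen with earlier results of these data known, so shares of called genes in them are descriptions only. Genes named are all members, each listed pathway gene with an unadjusted p under 0.05, the largest estimate of each list and the 5 genes nearest to the mean profile (mean of at least 10 CPM). Spry3, Sftpc, Dusp7 and Dusp16 were added with their values known. Values of some listed genes are not reported here. The alternatives were DESeq2 1.42.0 (Wald test), RLE, library totals or upper-quartile factors, filters that kept genes with 1 count anywhere (looser) or 10 counts everywhere (stricter), robust empirical Bayes, limma 3.58.1 voom, a replicate block, each library left out and, added after the values were seen, sex as a covariate. Depth does not limit these genes, since the lowest count of a member was 126, and the spread between libraries sets the precision.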

Additional observations from a re-analysis of the deposited data

How the results depend on the processing

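Of the log2 fold changes of the 32 genes run under the alternatives, 474 kept their direction under an alternative and 5 reversed. Genes other than the members were run because of a low p or a large estimate, so their kept direction says little about stability. All 5 reversals were of members. With library totals Spred1 became 0.032 and Etv1 0.050. Leaving out a library gave Etv1 −0.17 to 0.13, with 0.13 when control replicate 2 and 0.051 when Igf1r-deleted replicate 2 was dropped. Etv5 was −0.090 without control replicate 1 and up to 0.41 without another library.

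The number of members with an unadjusted p under 0.05 was 3, where 12.4% of all genes were called. It was 0 with sex as a covariate, where 8.82% were. With an Igf1r-deleted library left out it ran from 0 to 6, where 6.58% to 21% were. The number that met the study's criterion was 0, and 1 (Etv4) with library totals, the looser filter, limma voom or the replicate block, and 0 to 1 with a library left out. Leaving out control replicate 1 gave a median over the members of −0.018, and leaving out any other library gave at most 0.13. With an Igf1r-deleted library left out, the count of RAS/ERK core genes with an unadjusted p under 0.05 ran from 2 to 5 (2 with all). That of related family genes ran from 6 to 7 (5 with all). That of the 14 immediate early and heat shock genes ran from 6 to 9 (9 with all). Of all genes, 6.58% to 21% were called in these fits (12.4% with all). The count of related family genes was 8 with sex as a covariate and 8 with the replicate block. Of all genes, 8.82% and 13.4% were called there. The causes were not tested.

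Control and Igf1r-deleted libraries share replicate numbers 1 and 2 in the labels, which do not say that these mark a litter or day. The deviations of same-numbered libraries correlated at 0.208 and 0.121 over genes, and 2 pairs do not settle a pairing. With the replicate block, 136 genes had an adjusted p under 0.05 in place of 0, and 1 of the members did (Etv4), while Spry1 and Dusp6 no longer had an unadjusted p under 0.05. A fit without 1 control leaves a single control, whose spread is taken from the Igf1r-deleted libraries.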
